A study of Rattus norvegicus with 12 samples.

Results

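The renin angiotensin aldosterone genes described here are Agt, Agtr1a, Ace, Enpep, Anpep, Mme, Nr3c2 and Hsd11b2. They were chosen by symbol in the deposited gene table, where all 8 were found among 32623 genes, and all 8 passed the filter on low counts. Messenger RNA was sequenced from the kidney cortex. The rats were males of 6 weeks and were homozygous (HOMO) or heterozygous (HET) for a mutation of Xdh, or wild-type (WT). Xdh encodes xanthine dehydrogenase, which makes uric acid. Every library carries the strain name SS-Xdhem1Mcwi, the wild-type libraries included, and the series design calls the rats littermates. Each genotype had 4 libraries, numbered 1, 2, 4 and 5 for HET and 1 to 4 for HOMO and WT. The labels do not say whether each library came from its own rat, so p-values cover only differences among the samples as labelled, which could be technical.

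In the renin angiotensin system angiotensinogen is cut to angiotensin I, and angiotensin-converting enzyme trims that to angiotensin II, which acts on the type 1 receptor. Aminopeptidases and neprilysin, which sit mainly on the brush border of the proximal tubule, cut the angiotensins further. Aldosterone acts in the distal nephron through the mineralocorticoid receptor, which is shielded from glucocorticoids by an enzyme that inactivates them.

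Markers of the proximal tubule were abundant in HET and WT and much lower in HOMO. The summed level of 12 proximal tubule markers was 2219 to 2713 CPM, scaled by TMM composition factors, in HOMO libraries, against 25119 to 27687 CPM in HET libraries and 23465 to 29053 CPM in WT libraries. The summed level of 9 macrophage and monocyte markers was 1891 to 2756 CPM in HOMO, against 269 to 323 CPM in HET and 227 to 351 CPM in WT. Total counts were 22858907 to 36998378 in HOMO, 18995464 to 37023629 in HET and 28481944 to 36119168 in WT. Xdh itself was at 57.6 to 61.7 CPM in 3 HOMO libraries, 140.4 to 197 CPM in HET and 212 to 380 CPM in WT. The library labelled HOMO replicate 3 had 229.7 CPM of Xdh, a level found in WT libraries and not in the other HOMO ones. Counts of called members, and members' log2 fold changes against WT, are therefore also given with it left out. Group means keep that library.

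Promoter sequences are shown for the members whose HOMO libraries lay apart from all others with either scaling of the libraries, Ace on the higher side and Agtr1a, Enpep and Anpep on the lower side. They come from RefSeq on build GRCr8, run 5′ to 3′ on the strand of the gene, and hold 250 bases before and 50 bases after the listed start. Capitals mark matches to 3 motifs on either strand, and overlapping matches were counted separately. The HNF1 half-site had the letters GTTAAT in this search. For TATA boxes the letters were TATAAA. For GC boxes, which Sp1 family factors are known to bind, they were GGGCGG.
Ace, chr10:91409879-91410178, plus strand: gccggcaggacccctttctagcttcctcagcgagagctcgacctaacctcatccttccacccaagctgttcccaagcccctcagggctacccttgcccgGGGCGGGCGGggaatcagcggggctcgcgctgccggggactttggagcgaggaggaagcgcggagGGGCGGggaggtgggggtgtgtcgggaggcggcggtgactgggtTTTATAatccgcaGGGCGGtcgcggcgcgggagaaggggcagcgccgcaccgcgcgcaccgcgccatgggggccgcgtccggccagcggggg
Agtr1a, chr17:34435383-34435682, minus strand: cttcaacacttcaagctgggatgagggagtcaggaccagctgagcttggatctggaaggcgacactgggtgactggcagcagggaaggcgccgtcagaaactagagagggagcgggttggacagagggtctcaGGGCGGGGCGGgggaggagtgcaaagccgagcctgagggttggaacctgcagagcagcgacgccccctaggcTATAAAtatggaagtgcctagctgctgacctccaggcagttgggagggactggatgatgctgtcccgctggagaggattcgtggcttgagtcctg
Enpep, chr2:220526169-220526468, minus strand: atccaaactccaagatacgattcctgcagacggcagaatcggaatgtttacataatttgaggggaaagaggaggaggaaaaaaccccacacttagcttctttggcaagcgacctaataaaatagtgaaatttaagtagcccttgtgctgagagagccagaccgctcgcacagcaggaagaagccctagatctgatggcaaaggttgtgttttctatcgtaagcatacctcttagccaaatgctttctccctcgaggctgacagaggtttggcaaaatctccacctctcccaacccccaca
Anpep, chr1:143195052-143195351, minus strand: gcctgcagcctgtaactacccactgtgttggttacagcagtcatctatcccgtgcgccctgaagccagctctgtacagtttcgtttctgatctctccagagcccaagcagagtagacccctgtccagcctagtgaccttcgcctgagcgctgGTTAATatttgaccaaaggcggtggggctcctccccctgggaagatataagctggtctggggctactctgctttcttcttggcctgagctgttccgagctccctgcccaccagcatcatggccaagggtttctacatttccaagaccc
The Ace promoter was 72.3% G and C, against a median of 52.3% over 27457 rat promoters of this length, and held 4 GC box matches and 1 TATA box match, on the other strand and ending 37 bases before the start. The Agtr1a promoter (60.7% G and C) held 2 overlapping GC box matches and 1 TATA box match that ended 40 bases before the start. In the Anpep promoter (55.7%) the HNF1 half-site was the sole match, between 98 and 93 bases before the start. The Enpep promoter (47.0%) held none of these letters. Of the 27457 promoters, 34.9% held the GC box, 14.3% the TATA box and 7.37% the HNF1 half-site. A promoter was matched for 5 of the 8 members, and that of Mme (68.7%) held 3 GC box matches. These matches describe the letters of the windows and no binding was measured.

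The comparison of HOMO with WT asks how loss of both Xdh alleles alters these transcripts. Anpep, Enpep, Agtr1a and Mme were lower in HOMO and Ace was higher, with changes between 3.17-fold and 14.1-fold. Nr3c2 and Hsd11b2 were lower by 1.62-fold and 1.45-fold, and Agt was not called. In all, 7 of 8 members were called at an adjusted p below 0.05 by edgeR's quasi-likelihood test, 1 higher and 6 lower, against a background of 71.7% of the 15856 genes tested. A share of called genes near that background is not a result about the members. By direction, 37.0% of all genes were called higher and 34.7% lower, and the median log2 fold change was -1.44 over the members and 0.04 over all genes. Without the library labelled HOMO replicate 3, 7 members were again called, and the log2 fold changes against WT were -3.73 for Anpep, -2.45 for Enpep, -1.78 for Agtr1a, -1.62 for Mme, -0.78 for Nr3c2 and -0.60 for Hsd11b2, with edgeR adjusted p of at most 0.0384. Scaling by library size alone, without composition factors, moved the median of all genes to 0.65 and left 4 members called, which were Anpep, Enpep, Agtr1a and Ace. Changes are therefore relative to the TMM scale.

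**Figure D1:**
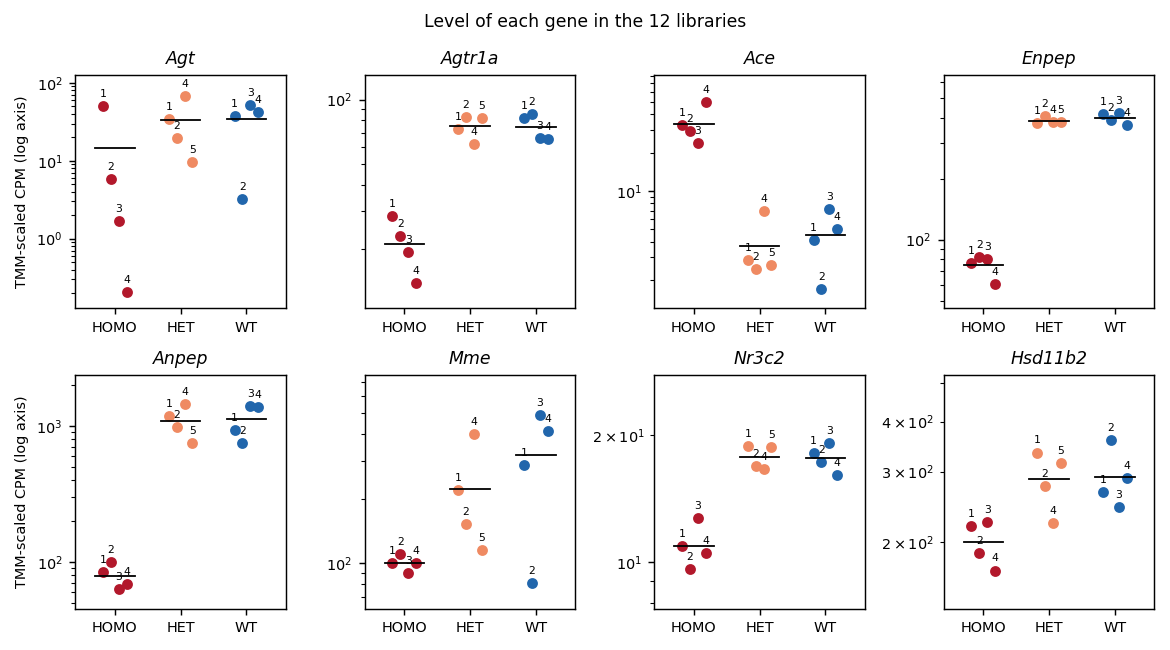
Level of each member in the 12 libraries, in TMM-scaled CPM on a log axis, with HOMO, HET and WT libraries from left to right, replicate numbers beside the points and a bar at the mean of each genotype. The HOMO libraries of Anpep lie between 63.4 and 99.5 CPM and those of Ace between 23.9 and 49.6 CPM, apart from all HET and WT libraries, while Agt spreads over every genotype.

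Agt (ENSRNOG00000018445, chromosome 19 from position 57321640 on Rnor_6.0) encodes angiotensinogen, the precursor of the angiotensins. Its level was 50.5, 5.80, 1.70 and 0.20 CPM in HOMO replicates 1 to 4. In HET replicates 1, 2, 4 and 5 it was 34.7, 19.3, 68.3 and 9.74 CPM, and in WT replicates 1 to 4 it was 37.9, 3.26, 52.2 and 42.8 CPM. HOMO replicate 1 was as high as the WT libraries while HOMO replicate 4 held 6 counts, and WT replicate 2 was far below the other WT libraries, so the groups overlapped. The highest library exceeded the lowest 248-fold in HOMO, 7.01-fold in HET and 16-fold in WT. Means were 14.6 ± 24.1 CPM in HOMO, 33 ± 25.7 CPM in HET and 34.0 ± 21.3 CPM in WT (SD, n = 4).

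The Agt difference was not called for HOMO against WT (log2 fold change -1.21 ± 1.27 SE, edgeR adjusted p = 0.411) or for HOMO against HET (-1.17 ± 1.27, adjusted p = 0.430). With limma voom the log2 fold change of Agt was -2.62 against WT (adjusted p = 0.107) and -2.78 against HET (adjusted p = 0.0902), also not called. The missing call rested on HOMO replicate 1. Without that library the log2 fold change of Agt was -3.70 against WT (edgeR adjusted p = 0.0209) and -3.66 against HET (adjusted p = 0.0223), and both passed the threshold. Without the library labelled HOMO replicate 3 it was -0.84 (adjusted p = 0.588) against WT and -0.80 (adjusted p = 0.610) against HET. HOMO replicate 1 also carried markers of other tissues. The summed level of 6 fat markers was 1539 CPM in HOMO replicate 1 and 52.5 to 66.6 CPM in the other HOMO libraries, 434 CPM in HET replicate 1 and 14.1 to 16.3 CPM in the other HET libraries, and 15.7 to 19.7 CPM in WT. The summed level of 4 urothelium markers was 104 CPM in HOMO replicate 1 and at most 2.85 CPM in the other HOMO libraries, at most 0.34 CPM in HET and at most 8.39 CPM in WT. The summed level of 4 liver markers did not single out HOMO replicate 1. It was 54.6, 43.9, 85.8 and 55.4 CPM in HOMO replicates 1 to 4, 4.32 to 37.0 CPM in HET and 3.59 to 41.9 CPM in WT. The part of these tissues in the Agt values was not tested.

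Agtr1a (ENSRNOG00000018346, chromosome 17 from position 35907108) encodes the angiotensin II receptor type 1a. Its level was 28.4, 23.0, 19.3 and 13.9 CPM in HOMO replicates 1 to 4, against 72.9, 82.8, 61.9 and 82.0 CPM in the HET libraries. In WT it was 82.2, 85.5, 66.1 and 65.5 CPM. Every HOMO library lay below every HET and WT library, with the nearest pair more than 2-fold apart. Agtr1a fell to 21.1 ± 6.13 CPM in HOMO, against 74.9 ± 9.74 CPM in HET and 74.8 ± 10.5 CPM in WT (SD, n = 4). The log2 fold change was -1.82 ± 0.19 against WT (edgeR adjusted p = 2.74e-06) and -1.82 ± 0.19 against HET (adjusted p = 2.74e-06), and with library size alone it was -1.20 and -1.19. The counts are uncertain where reads could be shared with the near-identical gene Agtr1b, which was at 3.10 CPM on average in HOMO, with a range of 1.22 to 5.49, and at 3.09 CPM in WT, with a range of 2.08 to 5.08. In bulk tissue, fewer cells of a type and less RNA per cell cannot be told apart, here and for every member.

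Ace (ENSRNOG00000062101, chromosome 10 from position 94170766) encodes angiotensin-converting enzyme, which forms angiotensin II and breaks down bradykinin. It was the one member that was higher in HOMO. Its level was 32.7, 29.3, 23.9 and 49.6 CPM in HOMO replicates 1 to 4, against 2.87, 2.44, 6.94 and 2.64 CPM in the HET libraries and 4.13, 1.69, 7.15 and 5.03 CPM in the WT libraries. The lowest HOMO library exceeded the highest HET or WT library more than 3-fold. Ace rose to 33.9 ± 11.1 CPM in HOMO, against 3.72 ± 2.15 CPM in HET and 4.50 ± 2.26 CPM in WT (SD, n = 4). The log2 fold change of Ace was 2.90 ± 0.44 against WT (edgeR adjusted p = 9.77e-05) and 3.19 ± 0.45 against HET (adjusted p = 5.84e-05). Without the library labelled HOMO replicate 3 it was 3.04 against WT (adjusted p = 1.73e-04) and 3.32 against HET (adjusted p = 1.09e-04).

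Marker lists of cell types that can carry Ace moved in different directions. Of 9 endothelial markers tested, 2 were called higher, 6 lower and 1 not called in HOMO against WT, and their summed level was 259 to 302 CPM in HOMO, 333 to 501 CPM in HET and 329 to 531 CPM in WT. The 9 macrophage and monocyte markers were all called higher, with a median log2 fold change of 3.03. The 12 proximal tubule markers were all called lower, with a median of -3.55. Of 6 markers of the straight segment of the proximal tubule, 5 were called lower and 1 higher, with a median of -4.49. Of 8 pericyte and mesangium markers, 7 were called higher and none lower, with summed levels of 489 to 893 CPM in HOMO, 167 to 262 CPM in HET and 167 to 293 CPM in WT. The part of these cell types in the Ace values was not tested.

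Enpep, Anpep and Mme encode peptidases of the cell surface. Enpep (ENSRNOG00000051854, chromosome 2 from position 233667254) encodes aminopeptidase A, which turns angiotensin II into angiotensin III. Its level was 76.9, 82.5, 80.5 and 60.4 CPM in HOMO replicates 1 to 4, against 375, 405, 381 and 382 CPM in the HET libraries and 417, 390.0, 423 and 367 CPM in the WT libraries. All HOMO libraries lay more than 4-fold below every other library, and Enpep varied least within HET and WT of all members, 1.08-fold and 1.15-fold between the lowest and the highest library. Enpep fell to 75.1 ± 10 CPM in HOMO, against 386 ± 13.2 CPM in HET and 399 ± 26.1 CPM in WT (SD, n = 4). Its log2 fold change was -2.41 ± 0.10 against WT (edgeR adjusted p = 4.51e-10) and -2.36 ± 0.10 against HET (adjusted p = 5.05e-10).

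Anpep (ENSRNOG00000014610, chromosome 1 from position 141561334) encodes aminopeptidase N, which shortens angiotensin III. It had the largest change of the members. Its level was 84.7, 99.5, 63.4 and 69.2 CPM in HOMO replicates 1 to 4, against 1186, 989, 1453 and 752 CPM in the HET libraries. In WT it was 928, 754, 1409 and 1389 CPM. The highest HOMO library lay more than 7-fold below the lowest of the others. Anpep fell to 79.2 ± 16.2 CPM in HOMO, against 1095 ± 297 CPM in HET and 1120 ± 330 CPM in WT (SD, n = 4). The log2 fold change of Anpep was -3.82 ± 0.27 against WT (edgeR adjusted p = 8.20e-08) and -3.79 ± 0.27 against HET (adjusted p = 8.54e-08). Of all genes tested, 1.73% had a lower log2 fold change in HOMO against WT.

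Mme (ENSRNOG00000009514, chromosome 2 from position 153803349) encodes neprilysin, which cuts angiotensins and natriuretic peptides. Its level was 100.1, 110.0, 89.7 and 101 CPM in HOMO replicates 1 to 4, a range of 1.23-fold. In HET it was 220.2, 153, 399 and 115 CPM, and in WT it was 286, 80.7, 492 and 412 CPM. WT replicate 2 lay below all HOMO libraries, so HOMO and WT overlapped. Each HET library lay above each HOMO library on this scale, the nearest at 115 and 110.0 CPM. In the authors' RPKM they overlapped, with HET replicates 2 and 5 at 40.7 and 31.1 and HOMO replicate 2 at 46.8. Mme was at 100.15 ± 8.31 CPM in HOMO, 222 ± 126 CPM in HET and 318 ± 179 CPM in WT (SD, n = 4). It was called lower against WT (log2 fold change -1.67 ± 0.52, edgeR adjusted p = 0.0137), but not with library size alone (-1.06, adjusted p = 0.0814). Without WT replicate 2 the log2 fold change was -1.99 (edgeR adjusted p = 6.64e-04). Against HET it was -1.15 ± 0.51 and not called (edgeR adjusted p = 0.0649), while the authors' deposited table gives Mme a log2 fold change of -1.14 with a false discovery rate of 1.39e-04 for that pair. In HOMO against HET, Mme passed the threshold with DESeq2 (adjusted p = 0.0392), in a fit of the 8 libraries compared (edgeR adjusted p = 0.0194), without HET replicate 5 (adjusted p = 0.0340) and without WT replicate 2 (adjusted p = 0.0111), a library outside that pair of genotypes.

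The peptidases can be set beside other brush border genes of the proximal tubule, a list chosen with results of these data known. Of 10 such genes, 9 were tested, and all 9 were called lower in HOMO against WT, with a median log2 fold change of -3.48. Slc9a3, the sodium proton exchanger of the brush border, was at 18.2 CPM on average in HOMO and 205 CPM in WT (log2 fold change -3.49 ± 0.09, edgeR adjusted p = 1.99e-11). Dpp4, a dipeptidyl peptidase, was at 229 CPM in HOMO and 1219 CPM in WT (-2.41 ± 0.13, adjusted p = 4.48e-09). Dpep1, a dipeptidase, was the least changed (-0.77 ± 0.24, edgeR adjusted p = 0.0127) and was not called with library size alone (-0.17, adjusted p = 0.532). Its call was also lost with replicate number as a block, where 8 of the 9 genes were called lower. The loss of proximal tubule markers accompanies these values and its part in them was not tested.

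Nr3c2 (ENSRNOG00000034007, chromosome 19 from position 34448289) encodes the mineralocorticoid receptor. Its level was 10.9, 9.63, 12.7 and 10.5 CPM in HOMO replicates 1 to 4, against 18.8, 16.9, 16.7 and 18.8 CPM in the HET libraries and 18.2, 17.3, 19.2 and 16.1 CPM in the WT libraries. The HOMO libraries lay below all others on this scale. Nr3c2 was at 10.9 ± 1.30 CPM in HOMO, 17.8 ± 1.15 CPM in HET and 17.7 ± 1.33 CPM in WT (SD, n = 4). The log2 fold change was -0.69 ± 0.10 against WT (edgeR adjusted p = 3.24e-05) and -0.70 ± 0.10 against HET (adjusted p = 3.07e-05). With library size alone neither call held, at -0.08 (adjusted p = 0.493) and -0.07 (adjusted p = 0.540). Per length and library total, in the authors' RPKM, Nr3c2 was at 5.54 ± 0.70 in HOMO, 5.83 ± 0.39 in HET and 5.86 ± 0.51 in WT, and the groups overlapped.

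Hsd11b2 (ENSRNOG00000017084, chromosome 19 from position 37476095) encodes the hydroxysteroid dehydrogenase that inactivates corticosterone in aldosterone target cells. Its level was 219.9, 187, 224 and 170 CPM in HOMO replicates 1 to 4, against 335, 277, 224 and 315 CPM in the HET libraries and 267, 360.0, 245 and 289 CPM in the WT libraries. On this scale the HOMO libraries lay below every WT library and met the lowest HET library. Means were 200.3 ± 26.0 CPM in HOMO, 288 ± 48.9 CPM in HET and 290.2 ± 49.9 CPM in WT (SD, n = 4). The log2 fold change of Hsd11b2 was -0.53 ± 0.15 against WT (edgeR adjusted p = 0.00513) and -0.52 ± 0.15 against HET (adjusted p = 0.00606). The direction turned with library size alone, to 0.085 (adjusted p = 0.586) and 0.11 (adjusted p = 0.479). Markers of the collecting duct principal cell, where both genes act, were mixed in HOMO against WT: 2 of 6 were called higher, 3 lower and 1 not called, and their summed level was 209 to 532 CPM in HOMO, 351 to 583 CPM in HET and 412 to 519 CPM in WT. Of 5 markers of the distal convoluted tubule, another aldosterone target, 4 were tested and all 4 were called lower in HOMO against WT, with a median log2 fold change of -0.78 that was -0.17 with library size alone. The summed level of those 5 markers was 392 to 831 CPM in HOMO, 1203 to 2158 CPM in HET and 1386 to 2306 CPM in WT. The part of these segments in the Nr3c2 and Hsd11b2 values was not tested.

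**Figure D2:**
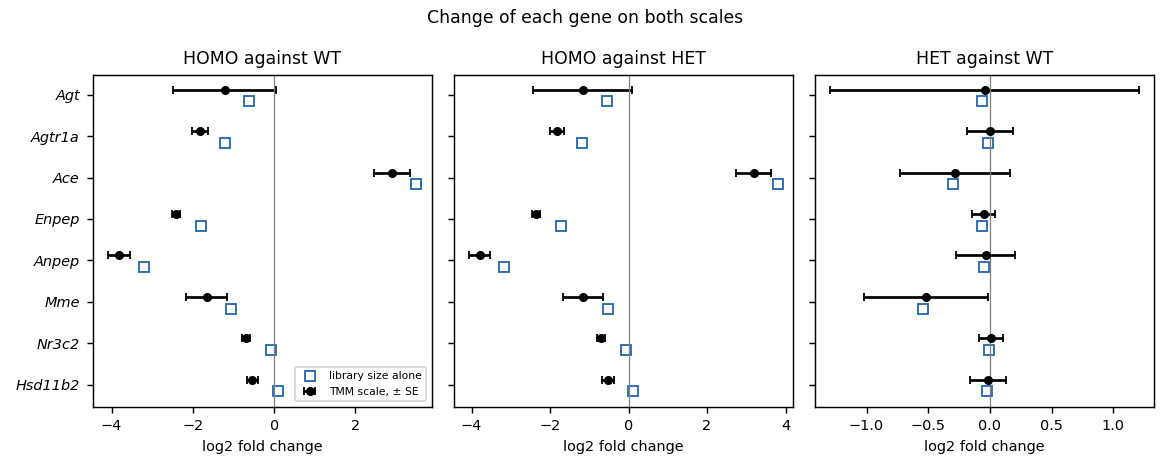
Log2 fold change of each member in the 3 comparisons. Filled points with bars are TMM-scaled values ± SE and open squares are values with library size alone, and the axes of the panels differ. In the HOMO comparisons Anpep, Enpep, Agtr1a and Ace stay on their side of 0 with either scale, and Hsd11b2 crosses 0 in both. In HET against WT the values lie within their SE of 0, except that of Mme at -0.52, just beyond its SE.

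The HOMO libraries were also compared with HET, a comparison that shares them with the one against WT. There 6 of 8 members were called, 1 higher and 5 lower, against a background of 70.6% of genes, 36.2% higher and 34.5% lower. The count was also 6 on leaving out the library labelled HOMO replicate 3. The median log2 fold change was -1.16 over the members and 0.04 over all genes. With library size alone 4 members were called. On the TMM scale, libraries did not overlap for 6 of 8 members in HOMO against WT, where 66.4% of all genes did not overlap. They did not for 6 in HOMO against HET, where the background was 64.4%. The pair that overlapped was Agt and Mme against WT and Agt and Hsd11b2 against HET.

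The comparison of HET with WT asks whether the loss of 1 allele is enough to alter these transcripts. No member was called by edgeR at an adjusted p below 0.05, and the background was 0.00% of 15856 genes. At an unadjusted p below 0.05 there were 0 of 8 members and 2.01% of all genes, and DESeq2 and limma voom called 0 genes. All 8 members overlapped between HET and WT, and 1.62% of all genes did not. Log2 fold changes of HET over WT were -0.52 ± 0.50 for Mme, -0.28 ± 0.45 for Ace, -0.05 ± 0.09 for Enpep, -0.04 ± 1.25 for Agt, -0.03 ± 0.24 for Anpep and -0.01 ± 0.15 for Hsd11b2. For Nr3c2 the log2 fold change was 0.01 ± 0.10 and for Agtr1a 0.0014 ± 0.18. The standard errors differ more than 10-fold between Agt and Enpep, so a small difference could be seen for Enpep and Nr3c2 but not for Agt, Mme or Ace.

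Members differed in how far libraries of the same genotype spread. Within WT, replicate 2 was the lowest and replicate 3 the highest library for each of Agt, Mme, Ace and Anpep, and the highest exceeded the lowest 16-fold for Agt, 6.09-fold for Mme, 4.22-fold for Ace and 1.87-fold for Anpep. Within HET, replicate 4 was the highest for the same genes and replicate 5 the lowest for Agt, Mme and Anpep, with ratios of 7.01 for Agt, 3.47 for Mme and 1.93 for Anpep. For Ace the lowest HET library was replicate 2 and the ratio was 2.85. The remaining members were within 1.5-fold in both genotypes.

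Within HET and WT, the same order of libraries, save for Ace in HET, was seen for Slc7a13. It is 1 of 6 listed markers of the straight segment of the proximal tubule. Slc7a13, an amino acid transporter of that segment, was at 22.6, 20.8, 3.58 and 0.47 CPM in HOMO replicates 1 to 4. It was at 563, 389, 2262 and 155 CPM in HET replicates 1, 2, 4 and 5, and at 1239, 40.5, 2949 and 2282 CPM in WT replicates 1 to 4. WT replicate 2 and HET replicate 5 were the low libraries, and WT replicate 3 and HET replicate 4 the high ones, a 72.8-fold range in WT and a 14.6-fold range in HET. Within HOMO the order was not shared by all these members. Agt fell from replicate 1 to 4 as Slc7a13 did, but Ace was highest in replicate 4 and Mme and Anpep in replicate 2. The summed level of 6 straight segment markers was 71.8 to 86.2 CPM in HOMO, 993 to 3171 CPM in HET and 996 to 3859 CPM in WT. Slc7a13 was 1 of them and made up most of the spread within HET and WT. In WT replicate 2 the sum was 996 CPM with 40.5 CPM of Slc7a13, and in WT replicate 3 it was 3859 CPM with 2949 CPM. Without Slc7a13 the sum was not lowest in WT replicate 2 and not highest in HET replicate 4. In HOMO against WT 5 of the 6 were called lower and 1, Cyp7b1, was called higher. The part of this segment in the spread of Agt, Mme, Ace and Anpep was not tested.

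**Figure D3:**
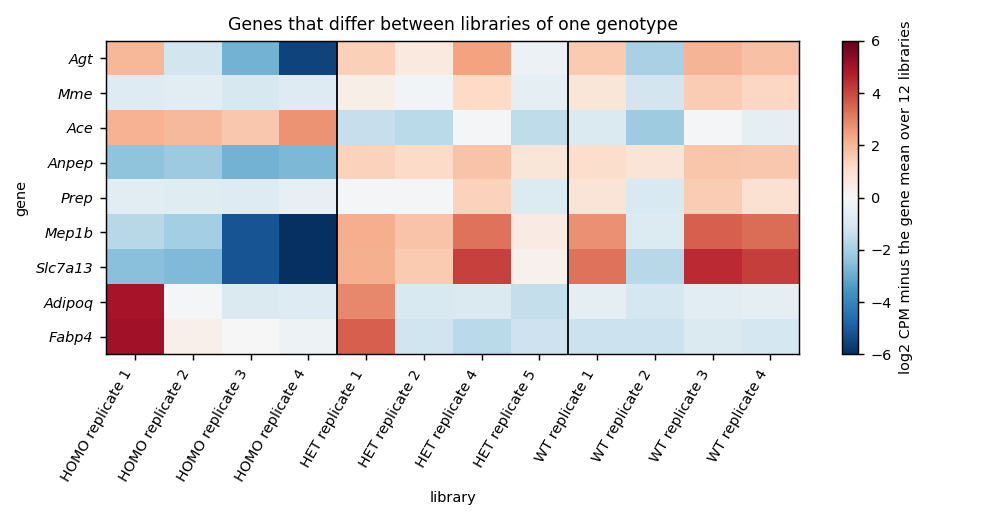
Log2 CPM of 9 genes in each library minus the mean of the gene over 12 libraries, with HOMO, HET and WT libraries from left to right. Agt, Mme, Ace, Anpep, Prep, Mep1b and Slc7a13 are low in WT replicate 2 relative to the other WT libraries, and the fat genes Adipoq and Fabp4 stand out in HOMO replicate 1 and HET replicate 1.

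Per length, in the authors' RPKM, Anpep was the most abundant member in WT at 254 ± 76.7, followed by Hsd11b2 (114 ± 16.1), Enpep (91.6 ± 7.67), Mme (88.0 ± 49.6), Agtr1a (29.8 ± 4.10), Agt (15.5 ± 9.70), Nr3c2 (5.86 ± 0.51) and Ace (1.05 ± 0.53). Hsd11b2, Enpep and Mme did not differ beyond their spread in WT. In HOMO the order of RPKM levels was Hsd11b2 (120.4 ± 17.4), Mme (42.1 ± 3.56), Anpep (27.4 ± 5.87), Enpep (26.4 ± 3.99), Agtr1a (12.9 ± 3.87), Ace (11.9 ± 3.62), Agt (10.1 ± 16.7) and Nr3c2 (5.54 ± 0.70). Ace was the lowest of the 8 in WT and reached the RPKM level of Agtr1a in HOMO, while Anpep and Enpep, which differed in WT, did not differ beyond their spread in HOMO. RPKM values are scaled by library total without composition factors.

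Other genes of the angiotensin pathway moved in both directions. The list held 15 genes beside the members, chosen with results of these data known, and 10 of them were tested. In HOMO against WT 2 were called higher, 4 lower and 4 not called, with a median log2 fold change of -0.018 that became 0.59 with library size alone, where 5 were called higher and 2 lower. Without the library labelled HOMO replicate 3, 11 were tested, 3 were called higher and 3 lower, and the median was 0.11. Prcp, a carboxypeptidase that cuts angiotensin II, rose to 42.4 CPM on average in HOMO, against 7.40 CPM in WT (2.52 ± 0.18, edgeR adjusted p = 5.35e-08). Cpa3, a carboxypeptidase of mast cells, was at 6.13, 1.74, 0.48 and 0.10 CPM in the HOMO libraries and at most 0.34 CPM in WT, and its call (3.78 ± 1.34, edgeR adjusted p = 0.0245) was lost without HOMO replicate 1 (2.34, adjusted p = 0.108), without WT replicate 1, 3 or 4 (adjusted p = 0.0507 to 0.0665) and with limma voom (adjusted p = 0.0857). Among the genes called lower, Ctsa, a lysosomal carboxypeptidase, was at 654 CPM in HOMO and 2530 CPM in WT (-1.95 ± 0.15, edgeR adjusted p = 8.31e-08). Atp6ap2, the prorenin receptor, was at 131 CPM in HOMO and 268 CPM in WT (-1.03 ± 0.10, edgeR adjusted p = 1.37e-06). Agtrap, which binds the type 1 receptor, was at -0.65 ± 0.13 (edgeR adjusted p = 4.34e-04) and at -0.03 with library size alone. Prep, a prolyl peptidase, was at -1.46 ± 0.53 (edgeR adjusted p = 0.0302), and its call was lost on leaving out any 1 of the HOMO libraries or WT replicate 1, 3 or 4 (adjusted p = 0.0536 to 0.0929), with no filter (adjusted p = 0.05002) and with library size alone (adjusted p = 0.161).

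**Figure D4:**
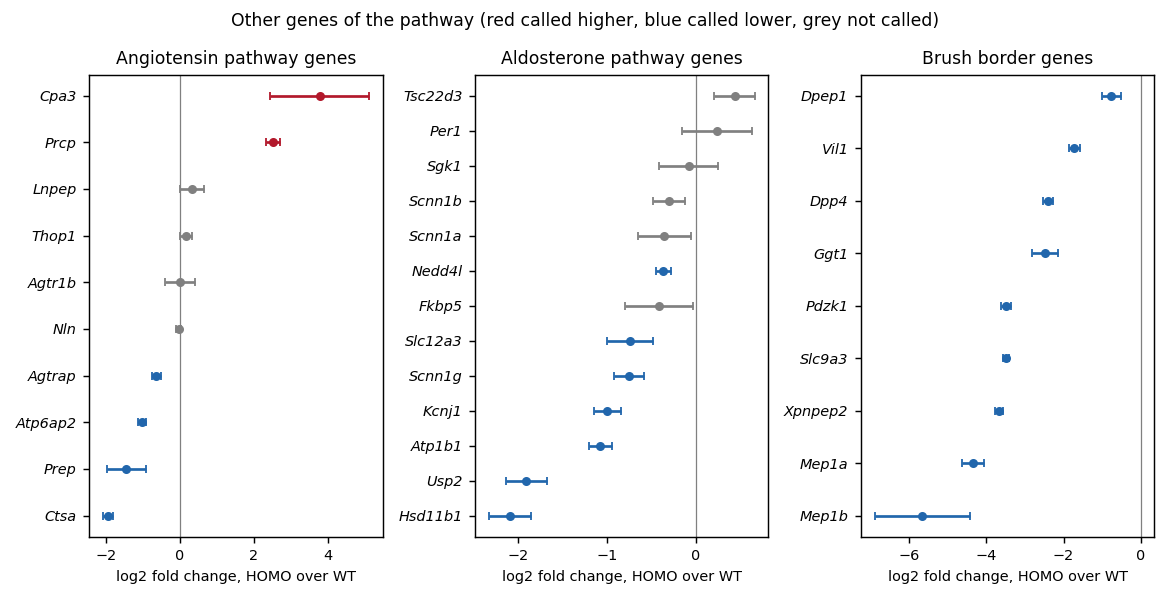
Log2 fold change of HOMO over WT ± SE for the tested genes of the angiotensin, aldosterone and brush border lists, in TMM-scaled values, with genes called higher in red, called lower in blue and not called in grey. The 9 brush border genes all lie below 0, whereas the angiotensin genes run from Ctsa at -1.95 to Cpa3 at 3.78.

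Of 15 aldosterone pathway genes listed, 13 were tested, and in HOMO against WT 7 were called lower, 6 not called and 0 higher, with a median log2 fold change of -0.42. With library size alone the median was 0.20, with 4 called lower and 2 called higher, so the direction of this list depends on the scale. Without the library labelled HOMO replicate 3, 8 were called lower. Hsd11b1, which regenerates corticosterone, was at 137 CPM in HOMO and 588 CPM in WT (-2.10 ± 0.24, edgeR adjusted p = 5.78e-06). Usp2, a deubiquitinase that acts on the epithelial sodium channel, was at 8.76 CPM in HOMO and 32.9 CPM in WT (-1.91 ± 0.23, edgeR adjusted p = 1.07e-05). Scnn1g, a subunit of that channel, was at -0.75 ± 0.17 (edgeR adjusted p = 0.00136) and at -0.14 with library size alone, while the subunits Scnn1a and Scnn1b were not called, at -0.36 ± 0.30 and -0.30 ± 0.18. Kcnj1, a potassium channel of the distal nephron, was at 123 CPM in HOMO and 246 CPM in WT (edgeR adjusted p = 6.44e-05). Nedd4l, a ubiquitin ligase that removes the sodium channel, was at -0.37 ± 0.09 (edgeR adjusted p = 0.00187) but at 0.25 with library size alone (adjusted p = 0.0210), where the call turned round. Against HET the angiotensin list had 1 called higher and 3 lower, the aldosterone list 7 lower and 0 higher, and the brush border list 9 lower. For HET against WT no gene of the 3 lists was called.

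Ratios within a library do not depend on how libraries are scaled. The log2 ratio of Hsd11b2 to Nr3c2, in counts per kilobase, was 4.58, 4.53, 4.39 and 4.26 in HOMO replicates 1 to 4. In HET replicates 1, 2, 4 and 5 it was 4.40, 4.28, 3.99 and 4.32, and in WT replicates 1 to 4 it was 4.12, 4.63, 3.92 and 4.41. The groups overlapped. The mean ratio was 4.44 ± 0.14 in HOMO, 4.25 ± 0.18 in HET and 4.27 ± 0.31 in WT (SD, n = 4). The difference was 0.17 for HOMO over WT (two-sided exact permutation p = 0.371) and 0.19 for HOMO over HET (exact permutation p = 0.200), each with p = 0.557 after Benjamini-Hochberg adjustment over 3 ratio tests. HET differed from WT by -0.02 (exact permutation p = 0.914). This does not show that the ratio is alike.

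The genes with the most similar pattern were found by the root mean square distance between log2 CPM values, each centred on the mean of the gene over 12 libraries, among 11566 genes whose log2 CPM averaged 1 or more. Genes without a named symbol, and some others, were not searched. Nearest to Agt were Cdo1 (0.64) and Umod (1.28), and nearest to Ace were Krt19 and Medag (0.34 each), both at larger distances than for the other members. Maob (0.13) and Idh1 (0.18) were nearest to Agtr1a, Nipsnap1 and Hibadh (0.11 each) to Enpep, and Ak4 (0.16) and Serpinf2 (0.18) to Anpep. For Mme they were Rexo5 (0.21) and Prep (0.22), for Nr3c2 Tmed4 and Cdc37l1 (0.08 each), and for Hsd11b2 Abhd6 and Tmco4 (0.12 each). The median distance over all genes searched was 2.34 for Agt, 1.63 for Ace, 1.13 for Enpep, 0.92 for Agtr1a, 0.43 for Nr3c2 and 0.42 for Hsd11b2. Among the members themselves the closest pairs were Nr3c2 with Hsd11b2 (0.21) and Agtr1a with Enpep (0.33). Nr3c2 and Hsd11b2 vary little and lie close to most genes, so the distance alone does not rank these pairs. Libraries, depth and scaling are shared by all these values, and the distances are descriptions of these 12 libraries.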

How the data were processed

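Kidney cortex RNA was measured in 12 libraries, 4 per genotype, grouped and numbered by their titles. Per the labels' protocols, Trizol was used on frozen tissue and the mRNA library kit was stranded. The authors deposited raw read counts per gene and RPKM values in 1 table. The submitters' processing notes name the build Rnor_6.0 and edgeR 3.8.6 without giving a role. The sources used here do not name the aligner or the annotation. Nor do they give the strand setting of the counter, so overlapping genes on opposite strands may share reads. The RPKM values the authors deposited matched counts per listed length and library total within a median of 0.0416% (largest 2.13%, values of at least 50 counts). They were used to compare levels between genes. The authors also deposited false discovery rates, p-values and log2 fold changes for each pair of genotypes, on counts that differed in 0 values from the count table, and these are printed only where named as theirs.

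The filter on low counts was edgeR's filterByExpr (count 10, total 15), which left 15856 of 22687 genes with a count. TMM factors were 1.29 to 1.35 in HOMO, 0.845 to 0.876 in HET and 0.830 to 0.908 in WT. All 12 libraries entered 1 quasi-likelihood fit with robust dispersion and a coefficient for each genotype, in edgeR 4.0.16 under R 4.3.3, and p-values were adjusted by Benjamini-Hochberg over all genes tested at a level of 0.05. Genes past it are "called". Levels were computed as CPM with TMM scaling. Ratios within a library were compared by two-sided exact permutation tests over all 70 arrangements (SciPy 1.17.1). Other planned ratios are not reported here, so 3 tests were adjusted together.

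The members, the pathway and marker lists and the rule for naming genes (all members, called pathway genes, the 2 nearest genes per member and markers beside a member) were chosen with earlier results of these data known. The not called subunits Scnn1a, Scnn1b and the paralog Agtr1b were named beside their relatives. The fat and urothelium lists, and the alternatives for pathway genes, were chosen after seeing the data. Some genes of the pathway lists are not reported here. Alternatives were RLE factors, library size alone, no filter, DESeq2 1.42.0, limma 3.58.1 voom, a filter of 1 CPM in 4 libraries, replicate number as a block, a fit to the 8 libraries of a comparison, and leaving out each library. Promoters came from RefSeq on GRCr8, another build than that of the files, and no coordinates were moved between builds.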

Additional observations from a re-analysis of the deposited data

Results flagged for a closer look

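For each member the highest or lowest of the 4 libraries of a genotype was set against the others by its gap to the nearest library divided by the whole range, against Dixon's critical value for 4 samples. Over 24 groups examined, chance alone gives about 1 in 20. Agt in HOMO replicate 1, at 50.5 CPM, stood apart from the other HOMO libraries with a ratio of 0.889, taken on CPM and not on log values. As log2 CPM minus the mean of the gene, Agt was 1.99, -1.12, -2.85 and -5.57 in HOMO replicates 1 to 4. On that scale all 4 libraries were spread out and replicate 1 was not set apart. The fat and urothelium markers of HOMO replicate 1 are given beside the Agt result. Ace in HET replicate 4, at 6.94 CPM, stood apart from the other HET libraries with a ratio of 0.905. That library was also the highest of the HET libraries for Agt, Mme, Anpep and Slc7a13. No cause was tested for either value.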

How the results depend on the processing

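The members' log2 fold changes were refitted under 20 alternatives per comparison. For HOMO against WT 156 of 160 values kept direction and side of the threshold, and for HOMO against HET 153 of 160. Library size alone left 4 members called in HOMO against WT and turned Hsd11b2 to 0.085 there and to 0.11 in HOMO against HET. It ended the calls of Mme in HOMO against WT and of Nr3c2 in both, and put Agt at -0.61 and -0.55. With the replicate block Agt was -1.66 against WT and -2.17 against HET, not called in either. Leaving out each library gave 7 to 8 members and 10926 to 11583 genes called in HOMO against WT, 6 to 7 members and 10743 to 11417 genes in HOMO against HET, and 0 of either in HET against WT.

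For HET against WT, where nothing was called, 28 of 160 values changed sign. Agt was 0.51 with the replicate block and 0.17 with limma voom. Agtr1a was -0.0155 with library size alone, -0.00059 with no filter and -0.0863 with the replicate block, Anpep was 0.14 with the block, and Nr3c2 was -0.0086 with library size alone. Over libraries left out, values ran between -0.67 and 0.26 for Agt, -0.77 and 0.021 for Ace, -0.0574 and 0.0821 for Agtr1a, -0.20 and 0.11 for Anpep, -0.0357 and 0.0494 for Nr3c2, and -0.0945 and 0.11 for Hsd11b2. The difference in the ratio of Hsd11b2 to Nr3c2 ran between -0.14 and 0.0948. The causes were not tested.

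Of the pathway genes in HOMO against WT, library size alone turned Nedd4l to 0.25. Deviations from the genotype mean correlated between -0.133 and 0.440 across same-numbered libraries, the highest being HOMO with HET replicate 1. These correlations do not settle whether same-numbered libraries are paired, and the labels do not say. With the replicate block 7 members and 11265 genes were called in HOMO against WT, 0 and 0 in HET against WT, and 6 and 10805 in HOMO against HET. The authors' RPKM gave the same ratios as counts per kilobase. With 6 counts of Agt in HOMO replicate 4 and 40 to 189 counts of Ace in each WT library, depth limits these levels more than those of the other members.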
